A study of Mus musculus with 6 samples.

Results

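PML nuclear bodies are round structures in the cell nucleus, and the genes described here are Pml, Daxx, Sp100, Sp110, Sp140 and A530040E14Rik, 6 of 21335 genes named by the array annotation. They were chosen by name, with earlier results of these data known. The probe sets whose annotation lists them were taken from the deposited table. Of these 6 genes, 5 have a probe set annotated to that gene alone, as do 19938 genes in all. Sp110 is listed only in probe sets that also list other genes, so no value is given for it as a gene.

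The arrays hold total RNA of 3 established mouse cell lines. NIH3T3 cells are fibroblasts from mouse embryos, L929 cells are fibroblasts from connective tissue, and RAW264.7 cells are macrophages. Each line was either unstimulated or treated with the type I interferon IFN-β (interferon-beta) for 4 h, to find genes whose transcription it regulates. Each of the 6 combinations has 1 array, and the dose was not given in the sources used here. No strain, allele or further agent is named in the labels.

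PML, also known as TRIM19, is the scaffold of these bodies. It is modified by the small protein SUMO, and client proteins such as SP100 and DAXX join the body through SUMO and SUMO-binding motifs. DAXX, with ATRX, places the histone variant H3.3 on chromatin, and SP100, SP110 and SP140 form a family of chromatin readers with a SAND domain. PML bodies are known for restricting viral genomes, and several of their components are known interferon-induced genes.

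Levels are log2 values, so that 1 unit is a 2-fold difference, and levels are compared between arrays for 1 probe set at a time. The macrophage markers followed the labels, with a median unstimulated level of the 9 macrophage markers of 10.8 in RAW264.7 against 4.33 in L929 and 4.40 in NIH3T3. The 9 fibroblast markers had medians of 4.69, 8.57 and 10.82 in that order, but Dcn and Thy1 were not above RAW264.7 in L929 (3.41 and 4.96 against 3.47 and 5.11). The 5 measured lymphocyte markers had medians from 4.19 to 4.36 and the 6 epithelial ones from 4.80 to 4.88. The array of stimulated NIH3T3 had a median over all probe sets of 5.05, against 4.72 to 4.82 on the other arrays, and the median change over all genes was -0.05 in L929, 0.17 in NIH3T3 and -0.03 in RAW264.7. In such bulk RNA fewer cells with a transcript and less of it per cell cannot be told apart.

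All 5 measured genes rose with IFN-β across the 3 lines. The effect was tested with limma, a linear model over all genes that took the cell line as a block and the 3 lines as replicates, at a Benjamini-Hochberg adjusted p under 0.05. By that rule 146 of the 19938 genes were higher, 0.732% of those tested, and 0 were lower. At an unadjusted p under 0.05 there were 838 higher and 254 lower genes in limma. Each SE over 3 lines given below is limma's, in which a gene's spread is drawn toward that of all genes. It can thus be well under what the SD between lines implies. Within a line the difference of 2 arrays has no error estimate. At the 3-fold threshold that the series states, 5 of the 5 genes were higher in NIH3T3, 5 in RAW264.7 and 4 in L929. Over all genes those shares were 0.476%, 0.617% and 0.893%. Daxx, Sp100, Sp140 and A530040E14Rik passed 3-fold in all 3 lines, as did 0.311% of all genes.

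**Figure D1:**
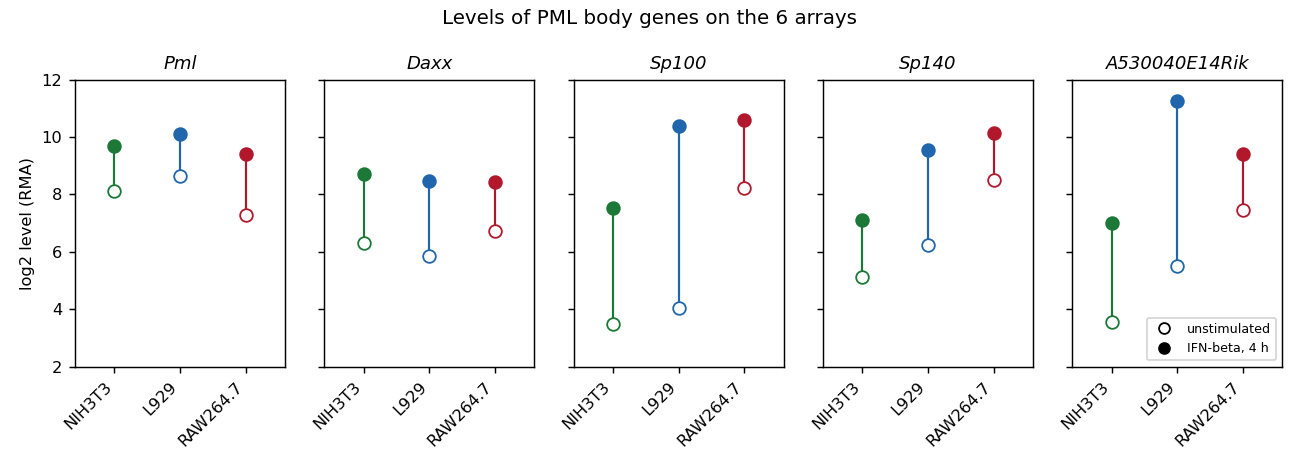
Log2 level (vertical axis) of each gene in the 3 cell lines (horizontal axis), with open circles for unstimulated arrays and filled circles for IFN-β arrays, 1 array each. Pml and Daxx reach similar levels in the stimulated lines, with ranges of 0.69 and 0.28, whereas stimulated NIH3T3 stays about 3 units below stimulated RAW264.7 for Sp100 and Sp140.

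The scaffold gene Pml (probe set 10594053) was well above the median level of its array in every line before stimulation. Its level was 8.66 in unstimulated L929 and 10.11 with IFN-β, 8.12 and 9.70 in NIH3T3, and 7.27 and 9.42 in RAW264.7. The unstimulated levels lay at percentiles 89.3, 84.3 and 73.4 of all genes on their arrays. Unlike the other measured genes, Pml was lowest in the macrophage line in both conditions. Each of its stimulated levels was above each unstimulated one, as for Daxx. Its mean log2 change was an increase of 1.73 ± 0.19 (SE over 3 lines), or 3.32-fold (limma adjusted p = 0.00145), and it was higher in 3 of 3 lines. The changes were 1.45 in L929, 1.59 in NIH3T3 and 2.15 in RAW264.7, an SD between lines of 0.37. The NIH3T3 change is the smallest of the 95 that passed 3-fold there, and with arrays centred on their medians it was 1.31, below 3-fold. In L929 the change was 2.73-fold, under the threshold.

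Daxx (probe set 10444056), the gene of the H3.3 chaperone that PML bodies hold, had the most even levels. It was at 5.85 in unstimulated L929 and 8.48 with IFN-β, at 6.30 and 8.70 in NIH3T3, and at 6.71 and 8.43 in RAW264.7. The 3 unstimulated levels spanned 0.86 and the 3 stimulated ones 0.28, and the conditions did not overlap. All 3 stimulated levels stood above all 3 unstimulated ones for 4.85% of all genes, and among the 5 measured genes for Pml and Daxx. Daxx rose by 2.25 ± 0.20 (SE over 3 lines), 4.76-fold, in 3 of 3 lines, with a limma adjusted p of 0.000489. Its changes were 6.19-fold in L929, 5.30-fold in NIH3T3 and 3.29-fold in RAW264.7, with an SD between lines of 0.47 on the log2 scale.

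Sp110, Sp140 and Sp100 follow one another in that order on mouse chromosome 1 in the RefSeq annotation of GRCm38.p6. A530040E14Rik lies next to the related gene A530032D15Rik on that chromosome. Pml is on chromosome 9 and Daxx on chromosome 17. RefSeq lists A530040E14Rik as a long noncoding RNA, so the word protein does not hold for it in that annotation. The coordinates below are those of RefSeq promoter windows of GRCm38.p6, since the sources used here do not give the build behind the array annotation.

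Sp100 and Sp110 share a stretch near their starts. Their windows have 300 bases, 250 before a transcript start and 50 from it. They are shown because Sp100 had the largest mean increase and Sp110 lies near it, with Sp140 between them. No change of Sp110 alone was measured. Capitals mark the longest stretch, 18 bases with 1 mismatch, that the Sp100 window at chr1:85649738-85650037 (plus strand) shares with the Sp110 window at chr1:85598761-85599060 (minus strand).
Sp100: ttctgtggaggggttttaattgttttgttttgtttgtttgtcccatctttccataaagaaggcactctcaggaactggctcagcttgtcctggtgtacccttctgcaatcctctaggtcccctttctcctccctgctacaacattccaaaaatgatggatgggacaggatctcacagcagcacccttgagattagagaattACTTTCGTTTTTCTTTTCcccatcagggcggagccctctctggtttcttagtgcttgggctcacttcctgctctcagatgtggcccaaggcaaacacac
Sp110: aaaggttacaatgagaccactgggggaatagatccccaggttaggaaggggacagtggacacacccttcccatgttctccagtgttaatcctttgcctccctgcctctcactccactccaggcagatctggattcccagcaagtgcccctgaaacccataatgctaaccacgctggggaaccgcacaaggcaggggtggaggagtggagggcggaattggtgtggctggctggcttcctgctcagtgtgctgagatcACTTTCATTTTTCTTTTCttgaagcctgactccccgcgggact
From Sp100 to Sp110 the mismatch is G7A, counted from 1 at the 5′ end of the stretch. The stretch begins 49 bases before the start in Sp100 and 7 bases past it in Sp110. Of 32851 windows in the table, 4 (0.0122%) hold ACTTTCNTTTTTCTTTTC on either strand. The string was read from the Sp100 and Sp110 windows, so 3 of the 4, those of Sp110 and of Sp100, which has a second overlapping window, match by construction.

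The interferon-stimulated response element, a DNA site known from promoters of interferon-induced genes, was searched by its core, GAAA repeated after any 2 bases, and the gamma-activated site by TTCNNNGAA, both on either strand. Neither string occurs in the 11 windows of the 6 genes and A530032D15Rik. The first is in 3.44% of all windows and the second in 8.30%. By gene, the first is in a window of 45 of the 116 higher genes that have one (38.8%), against 3.89% of the 15614 tested genes that have one. For the second these shares are 15.5% and 8.99%. With 1 base more between the repeats, GAAANNNGAAA, a string chosen after the sequences were seen, matches inside the shared stretch of Sp100 and Sp110 and is in 2.75% of all windows, with shares by gene of 10.3% of the higher and 2.97% of the tested genes. Sp100 is itself among the matching higher genes, by construction.

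The windows of Sp140 and A530032D15Rik are shown because they are nearly alike over most of their length. Transcripts and probes were not compared. The Sp140 window is chr1:85600453-85600752 (plus strand), that of A530032D15Rik is chr1:85109804-85110103 (minus strand), and the capital marks the base that differs.
Sp140: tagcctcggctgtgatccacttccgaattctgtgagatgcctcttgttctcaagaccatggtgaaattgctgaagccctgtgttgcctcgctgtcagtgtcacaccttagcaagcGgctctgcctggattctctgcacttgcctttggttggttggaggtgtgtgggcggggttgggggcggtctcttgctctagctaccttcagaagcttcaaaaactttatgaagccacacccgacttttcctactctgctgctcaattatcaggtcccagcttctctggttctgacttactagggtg
A530032D15Rik: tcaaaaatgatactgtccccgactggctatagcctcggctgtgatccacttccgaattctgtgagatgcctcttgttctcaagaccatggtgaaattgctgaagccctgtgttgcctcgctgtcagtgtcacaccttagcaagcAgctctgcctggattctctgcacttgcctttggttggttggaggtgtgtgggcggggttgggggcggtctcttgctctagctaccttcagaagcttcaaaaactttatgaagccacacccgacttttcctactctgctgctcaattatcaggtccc
They share 271 bases with 1 mismatch, G116A from Sp140 to A530032D15Rik, counted from 1 at the first base of the Sp140 window.

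The SP100 family differed from Pml and Daxx in its starting levels. Sp100 (probe set 10347948) was at 4.03 in unstimulated L929 and 10.40 with IFN-β, at 3.47 and 7.54 in NIH3T3, and at 8.21 and 10.60 in RAW264.7. Unstimulated RAW264.7 was thus 4.46 above the mean of the unstimulated fibroblast lines and 0.67 above stimulated NIH3T3. Sp100 went from percentile 19.6 of all genes to 77.2 in NIH3T3 and from 29.7 to 97.8 in L929, while in RAW264.7 it began at 83.7. With IFN-β the levels of L929 and RAW264.7 came close to each other and NIH3T3 stayed 3.06 below RAW264.7. With 1 array per condition, none of these differences between lines in level has an error estimate.

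Sp100 had the largest mean increase of the 5 genes. It rose by 4.28 ± 0.54 (SE over 3 lines), 19.4-fold, in 3 of 3 lines, with a limma adjusted p of 0.00385. The change was 82.9-fold in L929, 16.8-fold in NIH3T3 and 5.25-fold in RAW264.7, which ranked 13th, 21st and 66th among all genes. The unstimulated levels in L929 and NIH3T3, 4.03 and 3.47, were under the lymphocyte marker medians there, 4.19 and 4.36. Fold sizes and ranks in these 2 lines thus depend on a start near the floor. The SD between lines was 2.0, above what the SE implies, because limma draws each gene's spread toward that of all genes. With variances estimated robustly the adjusted p of Sp100 was 0.831, and over all alternatives it ran from 2.92e-71 to 1. The lowest is from the fit without RAW264.7, where all 5 genes had the same SE, 0.29. It thus does not measure the spread of Sp100 itself.

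Sp140 (probe set 10582862), a family member best known from leukocytes, was also highest in the macrophage line. Its levels were 6.25 in unstimulated L929 and 9.56 with IFN-β, 5.14 and 7.11 in NIH3T3, and 8.52 and 10.14 in RAW264.7. Unstimulated RAW264.7 exceeded stimulated NIH3T3 by 1.41, so the conditions overlapped. Sp140 rose by 2.30 ± 0.28 (SE over 3 lines), 4.93-fold, in 3 of 3 lines, with a limma adjusted p of 0.00288. The changes were 9.93-fold in L929, 3.92-fold in NIH3T3 and 3.08-fold in RAW264.7. The SD between lines was 0.89 on the log2 scale, above what the SE implies. Its RAW264.7 change ranked 120th of the 123 that passed 3-fold in that line.

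A530040E14Rik has 5 probe sets of its own, of which 10347921, the one with the highest mean, stood for the gene. On it the level was 5.51 in unstimulated L929 and 11.27 with IFN-β, 3.57 and 7.01 in NIH3T3, and 7.45 and 9.40 in RAW264.7. Here stimulated L929, not RAW264.7, was the highest array. The gene rose by 3.72 ± 0.52 (SE over 3 lines), 13.2-fold, in 3 of 3 lines, and its limma adjusted p was 0.00703. The changes were 54.0-fold in L929, 10.9-fold in NIH3T3 and 3.88-fold in RAW264.7. The SD between lines was 1.91 on the log2 scale, again above what the SE implies. In NIH3T3 the unstimulated level, 3.57, was under the lymphocyte marker median of 4.36 there, so that fold depends on a start near the floor.

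The other 4 probe sets of A530040E14Rik form 2 pairs with identical values on every array. They thus carry 2 distinct patterns, which are nearly alike and are not independent checks. On 10347919 the changes were 6.70 in L929, 1.79 in NIH3T3 and 1.49 in RAW264.7, and on 10582860 they were 6.77, 1.99 and 1.47. They thus placed NIH3T3 lower and L929 higher than 10347921 did, and RAW264.7 below 3-fold. The call across lines depended on this choice, with limma adjusted p-values of 0.150 and 0.132 on the 2 patterns and 0.0842 for the mean of the 5 probe sets. Variances estimated robustly gave 0.893 on 10347921, and leaving out NIH3T3 gave 0.0591, in a range from 2.89e-55 to 1 over all alternatives. The lowest is again from the fit without RAW264.7, with the SE of 0.29 that all 5 measured genes had there.

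**Figure D2:**
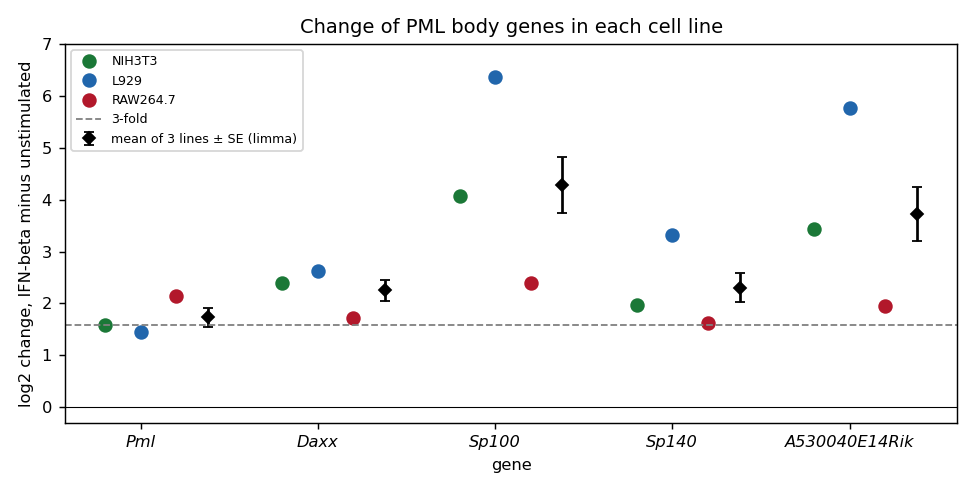
Log2 change with IFN-β (vertical axis) of each gene (horizontal axis), with coloured points for the 3 cell lines, 1 pair of arrays each, diamonds with bars for the mean and limma's SE over the lines, and a dashed line at 3-fold. L929 has the largest change for Daxx, Sp100, Sp140 and A530040E14Rik, and RAW264.7 has it for Pml.

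Of the 18 probe sets that list a member, 9 list several genes, and 6 of these list Sp110. The values of those 6 cannot be given to Sp110 alone, and 2 of them are identical on every array. Their levels ran from 2.93 to 5.67 in unstimulated L929, from 3.20 to 5.91 in unstimulated NIH3T3 and from 7.99 to 9.37 in unstimulated RAW264.7. With IFN-β they ran from 8.58 to 9.95, from 4.85 to 6.37 and from 9.75 to 10.80 in the same order. The lowest unstimulated fibroblast levels were under the lymphocyte marker medians, 4.19 in L929 and 4.36 in NIH3T3, so changes from them depend on a start near the floor. As for Sp100, unstimulated RAW264.7 was above stimulated NIH3T3 on all 6, by ranges that do not overlap.

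The changes of these 6 probe sets had medians of 5.40 in L929, 1.86 in NIH3T3 and 1.63 in RAW264.7, and L929 had the largest of the 3 on each. When all 35557 probe sets were tested together in limma, the 6 had adjusted p-values from 0.502 to 0.938, and each had an unadjusted p under 0.05. In that fit 14 probe sets passed in all, and neither the 9 shared probe sets nor those of the 5 measured genes were among them, with adjusted p-values of 0.0965 for Pml and 0.0842 for Daxx. The remaining 3 shared probe sets list Sp100 or Sp140. The one with Sp100, 10356262, changed by 5.67 in L929, 3.39 in NIH3T3 and 2.50 in RAW264.7, against 6.37, 4.07 and 2.39 on the probe set of Sp100 alone.

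**Figure D3:**
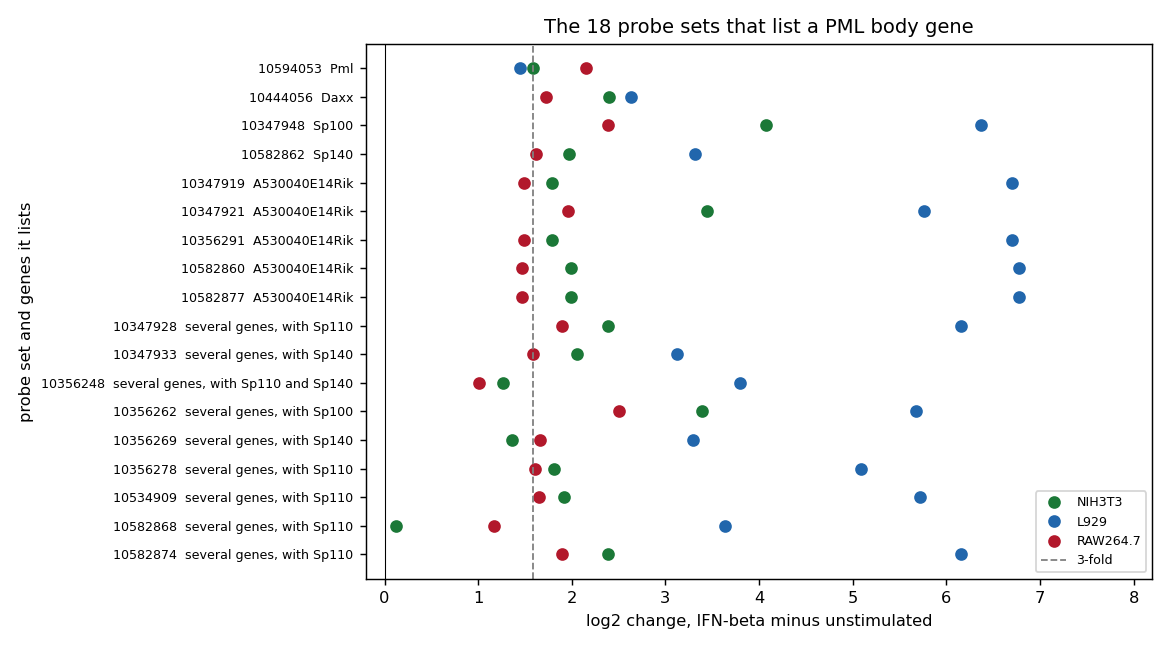
Log2 change with IFN-β (horizontal axis) on each of the 18 probe sets that list a member (vertical axis), coloured by cell line, with a dashed line at 3-fold. All 9 shared probe sets have their largest change in L929, from 3.12 to 6.16.

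Whether the macrophage line responded differently was tested as an interaction term, the change in RAW264.7 minus the mean change of the fibroblast lines. That fit had 1 residual degree of freedom and a single SE, 0.49, for all genes. It assumes that the genes vary alike and that RAW264.7, with 1 pair of arrays, varies like the fibroblast lines. The fit across lines did not treat the genes as varying alike (prior of 7.87 degrees of freedom). A smaller change in RAW264.7 was called for 31 genes, 0.155% of those tested, and 2 of the 5 were among them. Sp100 changed by 2.39 in RAW264.7 against a fibroblast mean of 5.22, a difference of -2.83 ± 0.49 (SE, limma adjusted p = 2.27e-05). A530040E14Rik changed by 1.96 against 4.60, a difference of -2.64 ± 0.49 (limma adjusted p = 0.000104).

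For both genes the fibroblast lines themselves differed by nearly as much, L929 exceeding NIH3T3 by 2.30 for Sp100 and by 2.31 for A530040E14Rik. On the other 2 patterns of A530040E14Rik the changes in NIH3T3, 1.79 and 1.99, were near those in RAW264.7, 1.49 and 1.47. L929 stood apart there, at 6.70 and 6.77, so the differences of -2.75 and -2.91 came mostly from L929. The lowest adjusted p of A530040E14Rik in the range that follows is from 10582860. After quantile normalization the adjusted p was 0.830 for Sp100 (range over the alternatives 1.89e-05 to 0.867) and 1 for A530040E14Rik (1.03e-05 to 1). The other genes were not called. Sp140 differed by -1.02 (95% interval -1.99 to -0.05, limma adjusted p = 1). Daxx differed by -0.80 (-1.77 to 0.17), and Pml by 0.64 (-0.33 to 1.60), the only positive difference of the 5. These intervals rest on the same pooled spread. A larger change in RAW264.7 was called for 0.0802% of all genes and for 0 of the 5.

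Among all genes 24.2% had their largest change in L929, and among the 146 higher genes 109 did, or 74.7%. Of the 146, which include the 5 measured genes, 105 (71.9%) had a higher unstimulated level in RAW264.7 than in either fibroblast line. The share over all genes was not counted for this feature, so whether it is unusual is not shown. Sp100, Sp140, A530040E14Rik and Daxx show both features, each of which most of the higher genes have, and Pml shows neither. The largest change in RAW264.7, as for Pml, was found for 18 of the 146 (12.3%), and its share over all genes was not counted either.

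The genes with the most similar changes were sought among 833 other genes whose mean change was above 0 at an unadjusted limma p under 0.05. Likeness was the root mean square of the differences in log2 change over the 3 lines. Nearest to Pml was Rasgef1b at 0.15, then Tdrd7 at 0.30 and Tmem106a at 0.34. Nearest to Daxx were Parp10, an ADP-ribosyltransferase gene (0.28), Slfn9, of the Schlafen family (0.33), and Lgals9, which encodes galectin-9 (0.36). Sp100 had the closest match of all, Phf11d, at 0.10, with changes of 6.20 in L929, 4.07 in NIH3T3 and 2.35 in RAW264.7. It was followed by Irgm1, an immunity-related GTPase gene (0.13), and Parp14 (0.32).

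Sp140 was nearest to Slfn9 (0.15), the class I-related gene H2-T24 (0.22) and Ifit1bl2 (0.24). A530040E14Rik was nearest to BC023105 (0.19), Ddx58, the gene of the viral RNA sensor RIG-I (0.29), and Samd9l (0.34). These are descriptions over 3 pairs of arrays.

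Other genes of the PML body and of SUMO conjugation are read against the 0.732% of all genes that rose, a share at which most short lists hold no such gene. Of 22 listed partners of the body 20 were measured, and 1 rose and 0 fell (2 at an unadjusted p under 0.05, as against 1092 of the 19938 genes), with a median mean change of -0.02 against 0.03 over all genes. The one that rose was Isg20, an exonuclease found in PML bodies and known as interferon-induced, with a mean log2 change of 2.47 ± 0.39 (SE, limma adjusted p = 0.0166). It changed by 2.48 in L929, 1.09 in NIH3T3 and 3.86 in RAW264.7, so that its largest change was in the line where Sp100 had its smallest. Morc3, an ATPase of these bodies, had a mean change of 0.40 (adjusted p = 0.850), and Rpa1, a subunit of replication protein A, one of -0.36 (adjusted p = 0.922).

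The H3.3 list, the histone and the HIRA and ASF1 chaperones that work beside DAXX and ATRX, had 7 measured genes, of which 0 rose and 0 fell in limma (0 also at an unadjusted p under 0.05). The histone gene H3f3a was at 3.35 in unstimulated L929, 3.61 in NIH3T3 and 3.90 in RAW264.7, so low that its lack of a call says little. H3f3b has no probe set of its own. The median mean change of the list was -0.19, with Asf1b and Hira both at -0.29 and Ubn1 at -0.20. Daxx thus changed while the mean change of Atrx, its partner, was 0.06 ± 0.18 (SE). Of 16 measured SUMO pathway genes 0 rose and 0 fell in limma (0 also unadjusted), with a median of -0.03. Senp7, a SUMO protease gene, had a mean change of 0.25, Sumo3 one of -0.19 and the SUMO ligase gene Pias3 one of -0.14.

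Genes outside the SP100 family that encode a SAND or SAND-like domain gave no call. Of 6, 0 rose and 0 fell in limma (0 also unadjusted), with Skil at 0.24, the thymic regulator gene Aire at -0.17 and Ski at -0.05. Within the family, A530032D15Rik rose by 1.26 ± 0.20 (SE, limma adjusted p = 0.0187), with changes of 1.83 in L929, 1.05 in NIH3T3 and 0.91 in RAW264.7. It started at 7.40, 6.12 and 9.14 in the same order, again highest in the macrophage line.

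Of 7 measured genes of the type I interferon signal, which acts upstream of interferon-induced genes, 3 rose and 0 fell. Stat2 rose by 3.13 and Irf9, its DNA-binding partner, by 2.22 (limma adjusted p-values 7.67e-05 and 0.0293). The transcription factor gene Irf1 rose by 2.49 (limma adjusted p = 0.000655). Irf9 changed by 3.23 in L929, 2.75 in NIH3T3 and 0.68 in RAW264.7, where its unstimulated level, 7.58, was above the 5.17 and 4.74 of the fibroblast lines. The receptor genes Ifnar1 and Ifnar2 had mean changes of -0.19 and 0.07.

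**Figure D4:**
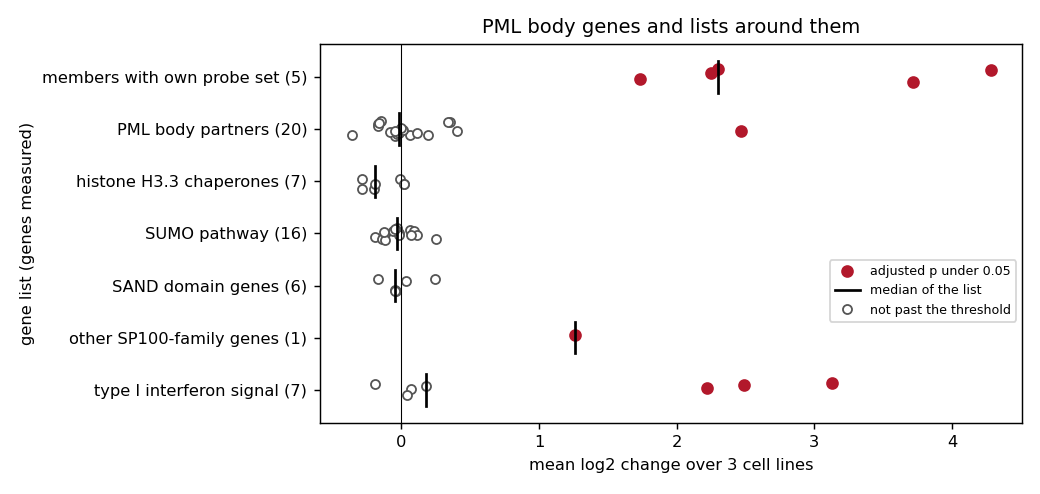
Mean log2 change over the 3 cell lines (horizontal axis) of each measured gene in the lists (vertical axis, with the number measured), filled where the limma adjusted p was under 0.05, with a bar at each list's median. The 5 members lie between 1.73 and 4.28, and Isg20 is the one filled point among the 20 body partners.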

How the data were processed

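Per the labels' protocols, RNA was extracted with an RNeasy Mini kit and labelled for Affymetrix whole-transcript arrays. The deposited values are log2 levels that the authors made with RMA, per the submitters' processing notes. Its settings were not given in the sources used here, and the values, 0.88 to 14.74, show the log base. The annotation names 1 gene for 21789 of 35557 probe sets, several for 1621 and none for 12147. Symbols were updated by Entrez ID (91 unmatched, 0 changed). For 999 genes with several single-gene probe sets the brightest on average was kept.

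R 4.3.3 with limma 3.58.1 fitted cell line plus IFN-β over 19938 genes (2 residual degrees of freedom, prior 7.87), with no filter on low levels. Arrays are paired through their cell line. The p-values across lines rest on the spread between 3 lines, drawn toward that of all genes. Those of the interaction rest on a spread pooled over all genes. The scripts were tested on simulated data. Members, lists and tests were chosen with earlier results of these data known. Text names all members, the called genes and 3 largest changes of each list, and the 3 nearest genes per member by the rule in the report. Atrx, H3f3a, H3f3b, Ifnar1 and Ifnar2 were added after the values were seen. Some genes of the lists are not reported here. The planned comparison of proteins was not made, as no protein table was used here. Promoter windows came from RefSeq (11 for 7 genes). Alternatives were the probe set per gene, all probe sets, a level filter at 5.32, centring, quantile normalization, variance settings, no block, each line left out, and other thresholds. Python 3.11.15 with pandas 2.3.3 and matplotlib 3.10.9 did the rest.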

Additional observations from a re-analysis of the deposited data

Results flagged for a closer look

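Sp100 differed between the macrophage line and the fibroblast lines by the test of that difference, with a change in RAW264.7 minus the fibroblast mean of -2.83 on the log2 scale (SE 0.49, limma adjusted p = 2.27e-05). A530040E14Rik differed likewise, by -2.64 (limma adjusted p = 0.000104). Both rest on 1 pair of RAW264.7 arrays and on a spread pooled over all genes, and neither passed after quantile normalization or when all probe sets were tested together. The change in L929 exceeded that in NIH3T3 by 2.30 for Sp100 and by 2.31 for A530040E14Rik. NIH3T3 was nearer to RAW264.7 than to L929 for both genes. A difference between cell types thus cannot be told apart from one between single lines.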

How the results depend on the processing

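No estimate of a member's change or difference reversed its sign under the alternatives that were run. The 223 combinations of a result and an alternative also hold counts of genes, which have no direction. Variance settings, the level filter, all probe sets and no block leave a member's estimate unchanged, so they could not reverse it. Precision is limited by the number of arrays. The mean increases of Pml (1.73), Daxx (2.25), Sp100 (4.28), Sp140 (2.30) and A530040E14Rik (3.72) lost the call when all probe sets were tested together (limma adjusted p = 0.0965, 0.0842, 0.226, 0.170 and 0.289) and without the cell line block (1, 0.199, 1, 1 and 1). The count of higher genes then went from 146 to 14 and 2, and it was 95 with robust variances. Robust variances, without and with a trend, also ended the calls of Sp100 (adjusted p = 0.831 and 0.845) and A530040E14Rik (0.893 and 0.884). A530040E14Rik lost its call with the mean over its probe sets (3.44, adjusted p = 0.0842) and, in alternatives chosen after seeing the data, on probe sets 10347919 (3.33) and 10582860 (3.41). Leaving out 1 line in turn gave 1.52 to 1.87 for Pml, 2.06 to 2.52 for Daxx, 3.23 to 5.22 for Sp100, 1.80 to 2.64 for Sp140 and 2.70 to 4.60 for A530040E14Rik, whose call was lost without NIH3T3 (3.86, adjusted p = 0.0591). Lower genes numbered 0, 1 with arrays centred, and 0 to 5 with a line left out, 5 without RAW264.7. The smaller changes in RAW264.7 of Sp100 and A530040E14Rik were not called with all probe sets (-2.83 and -2.64, adjusted p = 0.867 and 1) or after quantile normalization (-2.67 and -2.60). Genes with a larger change in RAW264.7 numbered 16, and 3 with all probe sets, 8 with the level filter, 4 after quantile normalization and 9 with robust variances and a trend. Those with a smaller change numbered 31, and 1 and 6 with all probe sets and quantile normalization. At 2-fold 345, 314 and 228 genes were higher in NIH3T3, L929 and RAW264.7, and at 5-fold 62, 115 and 67. Of the 5 members, 4 passed 5-fold in L929, 3 in NIH3T3 and 1 in RAW264.7. The cause was not tested. The block by cell line pairs the arrays of each line, and with 1 array per line and condition no further pairing was possible.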

Other observations

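Among the probe sets that list Sp110 with other genes, 10582868 stood apart in NIH3T3, an observation made after its values were seen. Its level there was 5.91 unstimulated and 6.03 with IFN-β, a change of 0.12, where the other 5 changed by 1.26 to 2.39. In L929 it changed by 3.64 and in RAW264.7 by 1.17. It lists 5 genes, and which of their transcripts it measured was not tested.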
